A study of Mus musculus with 2 samples.

Results

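The 8 mouse miRNA names mmu-miR-5099, mmu-miR-6240, mmu-miR-2137, mmu-miR-5124a, mmu-miR-3473b, mmu-miR-709, mmu-miR-6538 and mmu-miR-5121 (written below without the species prefix, which stands for mouse) are described here, out of 1477 miRNA names with at least 1 count in either library. They were chosen from the deposited name lists because they stood high in these same counts and because their standing as miRNAs is open to doubt, so their level and rank are a description and carry no test. The data comprised 2 replicate libraries of 1 group. Both came from cultured mouse skin keratinocytes, an epithelial cell type, in which a fusion of desmoplakin (Dsp) with the biotin ligase BirA was expressed exogenously and which were given biotin. Proteins labelled at the desmosomal plaque, Argonautes among them, were captured on streptavidin with their bound RNA after DNase and RNase treatment. No library without the fusion, without biotin or without the pulldown was analysed here, so every value describes recovered reads and not enrichment, and all samples share the fusion and the biotin. Replicate 1 held 3776893 miRNA counts over 1231 names and replicate 2 held 4122955 over 1232. Sampling of reads alone did not account for the gap between the tables (chi-square 60.6 per degree of freedom), so they were kept as 2 samples, and nothing in the labels says whether they came from separate cultures. The 7 miRNAs listed as epithelial markers took 10.6% of the counts in each library, while the lists of liver, neural, muscle, blood and mesenchymal markers each took between 0.000212% and 0.0114%. Mesenchymal markers made up 0.00249% and 0.0101% of counts, mostly through miR-214-3p in replicate 2 (26 and 364 counts, log2 ratio 3.68), and whether this bears on the differences between the libraries was not tested.

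A miRNA is cut from a hairpin precursor either arm of which can be loaded onto an Argonaute, and the ending 5p or 3p of a name says which arm a sequence comes from. A name without such an ending usually belongs to an entry for which only 1 arm was ever catalogued. The loaded strand finds its targets mainly through its seed, bases 2 to 8 from the 5′ end, and Argonautes are known to favour strands that begin with U. Many miRNA entries with high numbers were catalogued from deep sequencing of mouse RNA alone, and fragments of ribosomal, small nucleolar or repeat-derived RNA are a known source of doubtful entries. Conservation was not analysed here, so the description of these names as poorly conserved was not checked.

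Mature sequences were at hand for 6 of the 8 names, from RefSeq (GRCm38.p6). They are shown because the length, base composition and seed of these names are compared below, with the seed in capitals and the bases 5′ to 3′.
miR-6240: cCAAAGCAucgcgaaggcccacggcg
miR-2137: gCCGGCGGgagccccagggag
miR-5124a: gGUCCAGUgacuaagagcau
miR-3473b: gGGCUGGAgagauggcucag
miR-6538: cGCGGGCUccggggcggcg
miR-5121: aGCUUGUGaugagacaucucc
For miR-5099 the hairpin alone was at hand, and neither its mature sequence nor a sequence of miR-709 is printed. The 6 seeds were all different from one another. Among all mature names of the RefSeq table, the seed of miR-3473b occurred in 1 other name, miR-3473e, and the seed of miR-6240 in 1 other, miR-330-3p. The remaining 4 seeds occurred in no other name of the table.
miR-330-3p: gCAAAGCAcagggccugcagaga
This seed mate, chosen after its values were seen, had 39 counts in replicate 1 and 44 in replicate 2, against 85478 and 83600 for miR-6240.

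The 8 names together took 7.91% of the miRNA counts in replicate 1 (7.88% to 7.93%, Wilson 95% interval), and replicate 2 gave 9.24% (9.21% to 9.27%), a mean of 8.57% ± 0.943 (SD, n = 2). The higher sum in replicate 2 rested on 1 name. Without miR-5099 the sum was 6.38% in replicate 1 and 5.57% in replicate 2, lower in replicate 2. By mean CPM (counts per 1000000 miRNA counts) 2 of the 8 stood among the 10 most abundant names and 7 among the 100 most abundant. The intervals cover counting error of reads only, and how PCR copies were handled is not given. Reads were counted per name with no scaling by length, and ligation and amplification can favour single sequences. Whether the reads were whole short RNAs or fragments cannot be seen from the counts.

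miR-5099 had 57754 counts (15291 CPM) in replicate 1 and 151461 (36736 CPM) in replicate 2, a mean of 26014 ± 15164 CPM. It was high in both libraries but ranked 14 in the first and 5 in the second. miR-6240 had 85478 counts (22632 CPM) and 83600 (20277 CPM), a mean of 21454 ± 1665 CPM. Its ranks, 9 and 10, were next to each other. miR-2137 had 58463 counts (15479 CPM) and 52156 (12650 CPM), a mean of 14065 ± 2000 CPM, with ranks 13 and 17.

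miR-5124a had 49261 counts (13043 CPM) in replicate 1 and 37048 (8986 CPM) in replicate 2, a mean of 11014 ± 2869 CPM, with ranks 18 and 26. miR-3473b had 19694 counts (5214 CPM) and 22697 (5505 CPM), a mean of 5360 ± 206 CPM. It was the steadiest of the 8, at ranks 37 and 36. miR-709 had 15188 counts (4021 CPM) and 21122 (5123 CPM), a mean of 4572 ± 779 CPM, with ranks 45 and 37.

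miR-6538 had 12150 counts (3217 CPM) in replicate 1 and 11379 (2760 CPM) in replicate 2, a mean of 2988 ± 323 CPM, with ranks 52 and 57. miR-5121 lay far below the other names. It had 643 counts (170.2 CPM) and 1491 (361.6 CPM), a mean of 265.9 ± 135 CPM, and ranked 188 and 140. Calling it abundant therefore holds only in a weaker sense than for the other 7, since miR-6538, the next name up, had 18.9 times its counts in replicate 1 and 7.63 times in replicate 2.

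**Figure D1:**
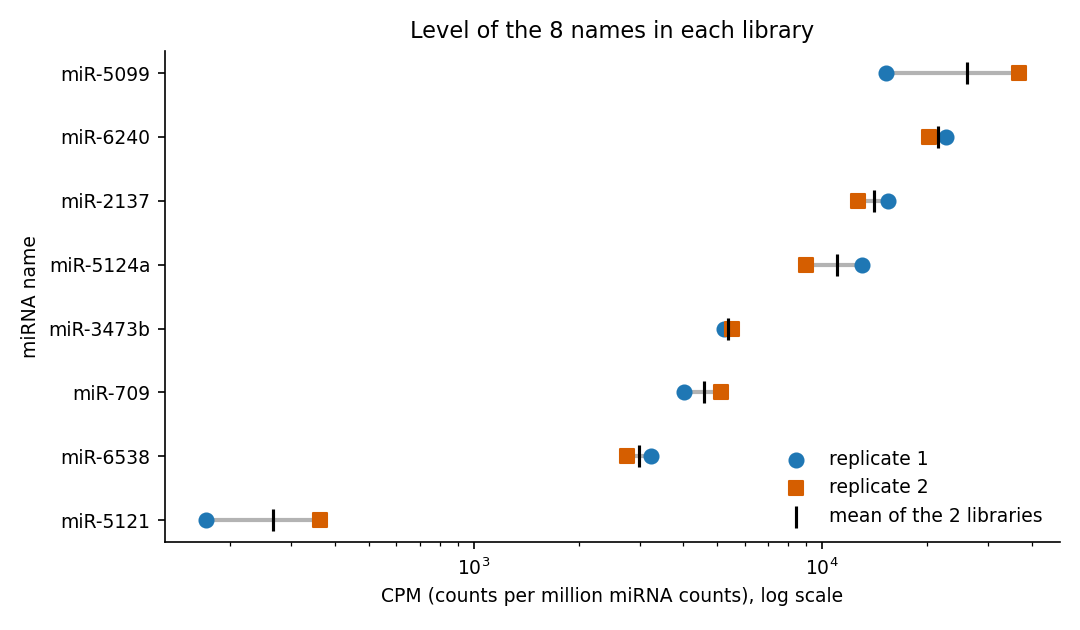
CPM of each name in replicate 1 (circle) and replicate 2 (square) on a log axis, with the mean as a vertical tick and a line joining the libraries. miR-5099 and miR-5121 show the widest gaps between the libraries, miR-3473b the narrowest, and miR-5121 lies below all others.

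The order of the 8 was partly fixed by the spread between the libraries. miR-5099 and miR-6240 changed places: miR-5099 had 0.676 times the counts of miR-6240 in replicate 1 and 1.81 times in replicate 2. miR-6240 had 1.53 ± 0.0996 times the counts of miR-2137 (SD, n = 2), above 1 by more than the spread. miR-2137 had 1.30 ± 0.156 times those of miR-5124a, and miR-5124a 2.07 ± 0.615 times those of miR-3473b. miR-3473b had 1.19 ± 0.157 times the counts of miR-709, a gap only slightly larger than its SD, and miR-709 had 1.55 ± 0.429 times those of miR-6538. No exact sign-flip p-value from 2 libraries can lie below 0.5 (two-sided), so these gaps are set against the SD alone.

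The names directly above and below each of the 8 by mean CPM mostly carried an arm ending, and most of those steps changed direction between the libraries. miR-5099 stood between miR-23a-3p and miR-23b-3p, lower than both in replicate 1 and higher than both in replicate 2. The step from miR-23b-3p to miR-6240 kept its direction and exceeded its SD, at 1.20 ± 0.0748 (SD, n = 2). So did that from miR-6240 to miR-125a-5p, at 1.14 ± 0.0344. With 2 libraries this is a description and not a test. miR-2137 was above miR-31-3p and miR-484 in replicate 1 and below both in replicate 2. miR-5124a likewise was above miR-30c-5p and miR-690 in replicate 1 and below both in replicate 2. miR-3473b stayed between miR-301a-3p and miR-20a-5p in both libraries, with steps of 1.06 ± 0.0515 and 1.14 ± 0.0982 that also exceeded their SD. miR-709 was below miR-15b-5p and miR-106b-5p in replicate 1 and above both in replicate 2. miR-6538 was above miR-33-5p and miR-421-3p in replicate 1 and below both in replicate 2. miR-5121 was below miR-1946b and miR-30f in replicate 1 and above both in replicate 2.

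**Figure D2:**
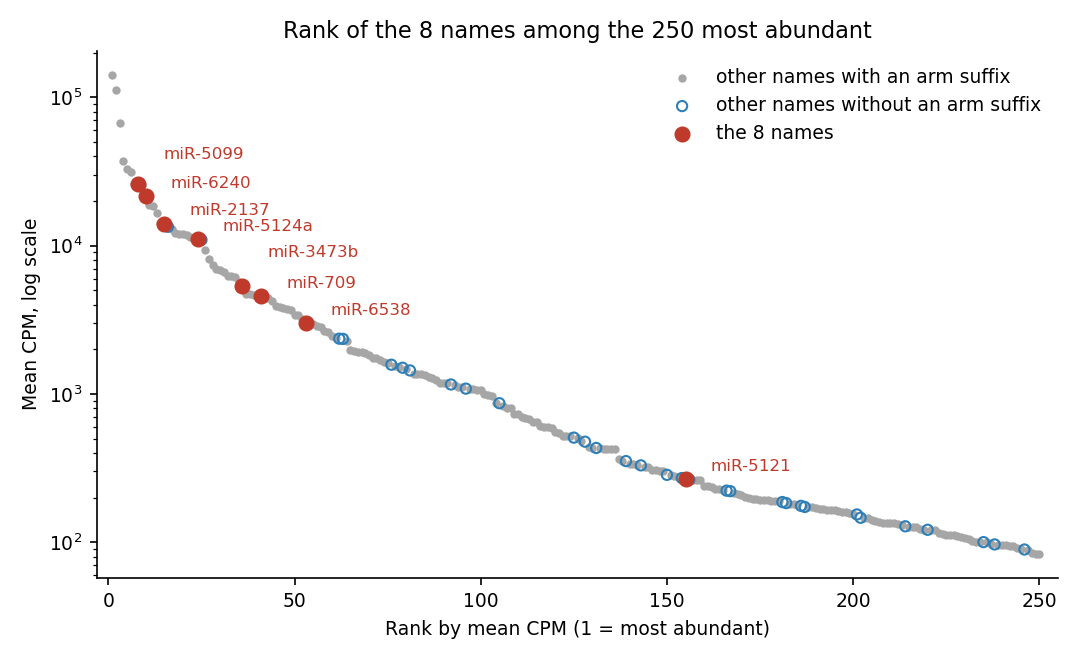
Mean CPM on a log axis against rank for the 250 most abundant names, with the 8 names filled, other names without an arm suffix as open circles and the rest as small dots. The filled points reach from rank 8 to rank 155, and all but miR-5121 lie within the first 53 ranks.

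None of the 8 names carried a 5p or 3p ending. Over all 1477 names, 241 (16.3%) carried none, and these took 12.2% of the counts in replicate 1 and 13.6% in replicate 2. The 8 names held 64.9% of that class in replicate 1 and 68.0% in replicate 2. The other 233 names without an ending took 4.28% and 4.35% of all counts, a smaller difference between the libraries than that of the 8. Among the 100 most abundant names 16 had no ending, of which 7 belonged to the 8. The 8 were chosen for standing high in these same counts, with their lack of endings known. These shares and places are therefore a description only. The 10 most abundant names without an ending were 7 of the 8 (all but miR-5121) together with miR-484 (13401 ± 729 CPM), miR-690 (10943 ± 61.4 CPM) and miR-3470b (2359 ± 333 CPM).

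No partner arm was listed for any of the 8 in either table. For a name in the reference used, a missing row would leave room for 3 counts, which is 0.794 CPM in the first library and 0.728 CPM in the second. That limit cannot be applied here with certainty, because the reference is not stated and RefSeq itself holds 1 mature sequence for each of the 6 hairpins that have one. Of the 1005 hairpins in the RefSeq table, 347 (34.5%) had 1 mature sequence, 644 had 2 and 14 had none. Whether a missing partner comes from what was catalogued or from a lack of reads of the other arm was not tested. The mature sequence lay on the 3′ side of the hairpin for miR-2137, miR-3473b and miR-5121 and on the 5′ side for miR-6240, miR-5124a and miR-6538.

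Names sharing a number with one of the 8 were few and low. For miR-5099, miR-6240, miR-2137, miR-6538, miR-709 and miR-5121 no other name with the same number was listed. miR-5124a had 1 lettered relative, miR-5124b, with 33 counts (8.74 CPM) in replicate 1 and 132 (32.0 CPM) in replicate 2. The letter a thus held 99.9% of the reads of that number in replicate 1 and 99.6% in replicate 2 (Wilson 95% intervals 99.91% to 99.95% and 99.58% to 99.70%). Their longest shared stretch had 12 bases (cagugacuaaga), which falls at different distances from the 5′ end, and the seeds differ.
miR-5124a: gGUCCAGUgacuaagagcau
miR-5124b: uGGCUCAGugacuaagaagca
This pair differed between the libraries in opposite directions: on the log2 scale, replicate 2 over replicate 1, the ratio stood at -0.54 for miR-5124a (exact 95% interval -0.56 to -0.52) and 1.87 for miR-5124b (1.31 to 2.47).

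The number of miR-3473b was shared by 6 more listed names, set apart by letters. miR-3473b held 93.8% of the reads of that number in the first library (93.5% to 94.1%, Wilson 95% interval) and 95.04% in the second (94.8% to 95.3%). miR-3473d followed with 950 and 799 counts, miR-3473e with 285 and 193, and miR-3473c with 35 and 132. miR-3473f had 8 and 45 counts, miR-3473a had 21 and 0, and miR-3473g had 0 and 16. The 6 lesser names summed to 1299 counts in replicate 1 and 1185 in replicate 2. Of the 5 deep enough for the exact test between the libraries given below, 2 were higher and 3 lower in replicate 2, so these letters did not share a direction.

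The letters of miR-3473 are shown side by side because several overlap in sequence.
miR-3473b: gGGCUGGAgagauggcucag
miR-3473e: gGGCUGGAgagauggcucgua
miR-3473a: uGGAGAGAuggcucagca
miR-3473f: cAAAUAGGacuggagagaug
miR-3473c: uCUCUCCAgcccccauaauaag
miR-3473d: cCACUGAGccacuuuccagcccuu
miR-3473b and miR-3473e share their first 18 bases (gggcuggagagauggcuc), a stretch that holds the seed. A read of up to 18 bases from that start cannot be told apart between them, and how the authors assigned such reads is not stated. miR-3473b had 69.1 times the reads of miR-3473e in replicate 1 and 117.6 times in replicate 2. miR-3473a shares 16 bases (uggagagauggcucag) with miR-3473b, in another register and with another seed. miR-3473c runs the other way: its reverse complement shares 12 bases (gggcuggagaga) with miR-3473b. An eighth letter in the RefSeq table, miR-3473h-5p, was listed in neither library.

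The libraries were then set against each other, name by name, with a two-sided exact binomial test on reads. Benjamini-Hochberg adjustment ran over the 1002 names averaging at least 10 counts. The test compares 2 libraries and no conditions. All 8 names passed an adjusted p-value of 0.05, the largest being 8.48e-08 for miR-3473b, 4 higher and 4 lower in replicate 2. That count is read against a background in which 70.6% of all names tested passed in either direction (36.2% higher and 34.3% lower), so passing this test was common. The share passing among names of like depth was not computed. The median log2 ratio was -0.040 over the 8 and -0.0048 over all names tested. At least 2-fold was reached by 2 of the 8 (background 44.0%). That background covers all names averaging at least 10 counts and is not matched for depth. The 52 other names averaging at least 10000 counts had log2 ratios from -0.56 to 0.20, so none of them reached 2-fold. That class holds miR-5099 but not miR-5121, which averaged 1067 counts. Other names averaging 1000 to 10000 counts had log2 ratios from -0.72 to 1.32, so 2-fold was reached there by other names too.

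miR-5099 differed most of the 8, with a log2 ratio of 1.26 (exact 95% interval 1.25 to 1.28), or 2.40 times in replicate 2. miR-5121 followed with 1.09 (0.95 to 1.22), or 2.12 times. miR-709 was also higher in replicate 2, with a log2 ratio of 0.35 (0.32 to 0.38). miR-3473b differed least, with 0.078 (0.051 to 0.106). For miR-5124a, whose log2 ratio is given above, replicate 1 had 1.45 times the CPM of replicate 2. miR-2137 had -0.29 (-0.31 to -0.27), miR-6538 -0.22 (-0.26 to -0.18) and miR-6240 -0.16 (-0.17 to -0.14).

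Set against names of like abundance, these differences were wide. Of the 59 names averaging at least 10000 counts, 7 belonged to the 8. The other 52 had a median absolute log2 ratio of 0.045, and 43 of them lay within 0.1. The SD of the log2 ratio was 0.22 over all 59 and 0.11 over the 52. By absolute ratio the 6 widest of the 59 were miR-5099, miR-103-3p, miR-5124a, miR-709, miR-2137 and miR-6538, of which 5 belong to the 8. miR-6240 was the 10th and miR-3473b the 21st. miR-5121, in the class from 1000 to 10000 counts, was the third of 100. These places are a description of 2 libraries, with no test that the 8 differ as a class.

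In a stricter form of the test all counts were first divided by 20.7, the average ratio of variance to mean that names of 10 to 300 counts showed between these libraries. It passed 16 of 1001 names (1.60%), and 6 of the 16 were miR-5099, miR-6240, miR-2137, miR-5124a, miR-709 and miR-5121. miR-3473b (adjusted exact p = 1) and miR-6538 (adjusted exact p = 0.325) did not pass. Of the other 10, 9 carried an arm ending: miR-31-5p, miR-141-3p, let-7c-5p, miR-103-3p, miR-107-3p (4644 and 10896 counts), miR-669c-3p (392 and 25), miR-214-3p (26 and 364) and both arms of miR-712 (1718 and 2974 for miR-712-5p, 565 and 1536 for miR-712-3p). The 10th was miR-714, without an ending (2880 and 5808 counts). These names were chosen after their values were seen. Since the divisor comes from the very differences being tested, fewer calls follow from its construction, and very abundant names can pass it with small ratios.

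**Figure D3:**
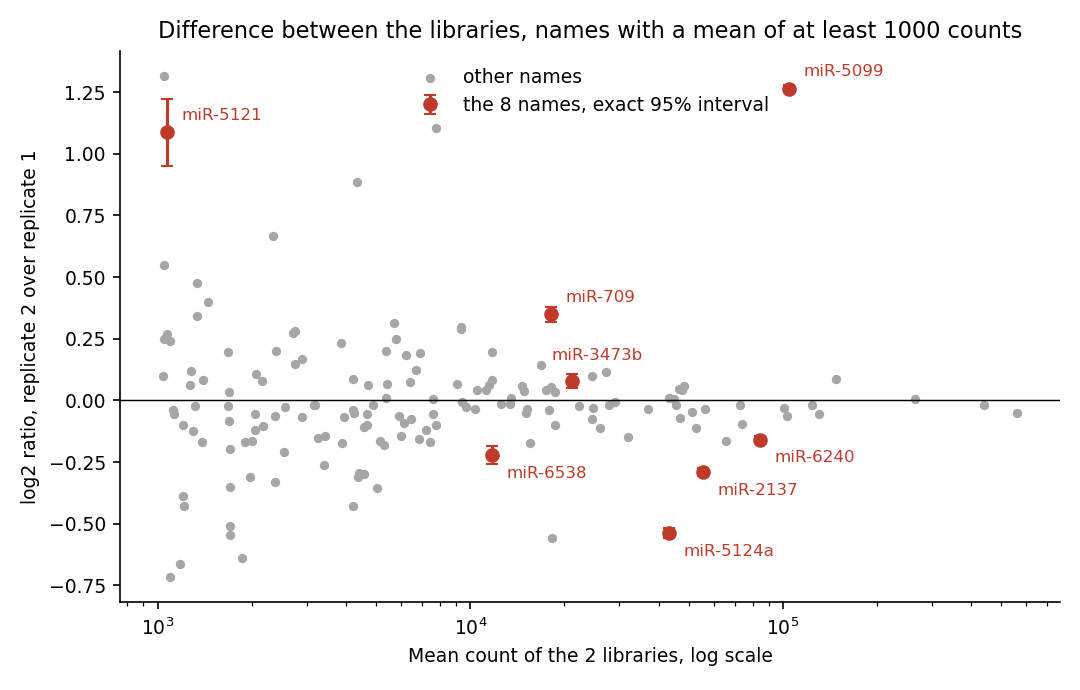
Log2 ratio of replicate 2 over replicate 1 against mean count (log axis) for names averaging at least 1000 counts, with the 8 names filled and given exact 95% intervals. Above 10000 counts most other names lie within 0.1 of 0, while miR-5099 stands at 1.26 and miR-5124a at -0.54.

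The mature sequences were unusual at the ends of several ranges. RefSeq gave a mature sequence for 1231 of the 1477 names (83.3%), which held 90.2% of the counts in replicate 1 and 88.0% in replicate 2. Their median length was 22 bases, and 95.6% had 20 to 24. miR-6240 had 26 bases, a length reached or exceeded by 13 of the 1231 names, and miR-6538 had 19 bases, at the short end. miR-2137 and miR-5121 had 21 bases, and miR-5124a and miR-3473b had 20. None of the 6 had the median length.

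The share of G and C was 94.7% in miR-6538 and 85.7% in miR-2137, against a median of 52.4% over the 1231 names and 45.5% over the 81 of the 100 most abundant names that had a sequence. Only 4 names, miR-6538 included, had a share as high as that of miR-6538, and 7 as high as that of miR-2137. miR-6240 had 69.2% and miR-3473b 65.0%. miR-5121, with 47.6%, and miR-5124a lay below the median, so a high share is not common to the set. Base composition can affect ligation and amplification, and its part in these levels was not tested.

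**Figure D4:**
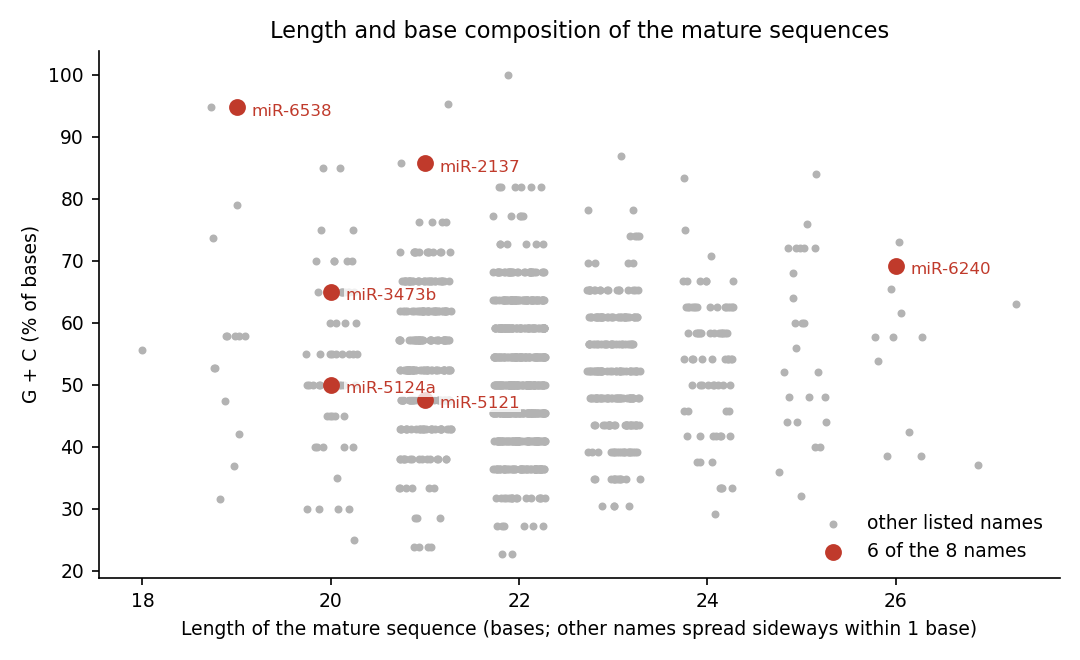
Share of G and C (percent) against length (bases) of the mature sequences of the listed names, with 6 of the 8 names filled. miR-6538 and miR-2137 lie near the top of the base composition range and miR-6240 near the long end, while miR-5124a and miR-5121 lie among the bulk of names.

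None of the 6 sequences at hand begins with U. For miR-5099, the highest of the 8 by mean CPM, and for miR-709 no mature sequence was at hand. Their first bases are therefore not given, and their counts are outside the shares below. miR-2137, miR-5124a and miR-3473b begin with G, miR-6240 and miR-6538 with C, and miR-5121 with A. Over the 1231 names 40.6% begin with U, and U-starting names held 63.8% of the matched counts in replicate 1 and 64.6% in replicate 2. G is the rarest start, in 13.0% of names. G-starting names held 5.55% of the matched counts in replicate 1 and 5.02% in replicate 2, and 1.94% and 2.05% of what remained once the 6 were left out. C-starting names held 6.48% and 6.28%, and 3.87% and 3.89% of what remained. Most of the matched reads counted under G in both libraries thus carried the names miR-2137, miR-5124a and miR-3473b.

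The hairpins differed widely in predicted folding. The hairpins of miR-3473b, miR-6240 and miR-5099 are shown because they are the most and the least stable of the set and the one without a mature sequence, with the mature sequence in capitals where there is one.
Mir3473b: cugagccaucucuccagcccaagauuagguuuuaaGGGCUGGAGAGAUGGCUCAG
Mir6240: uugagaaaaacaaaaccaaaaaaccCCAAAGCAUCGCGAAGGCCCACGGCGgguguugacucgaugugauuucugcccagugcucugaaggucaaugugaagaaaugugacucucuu
Mir5099: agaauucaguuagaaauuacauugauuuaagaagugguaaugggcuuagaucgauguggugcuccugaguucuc
The predicted minimum free energy per base was -0.773 kcal/mol for Mir3473b, lower than in 99.7% of the 1005 hairpins, and -0.211 kcal/mol for Mir6240, lower than in 1.39%. The median was -0.406 kcal/mol. Mir6538 (-0.470), Mir2137 (-0.373), Mir5099 (-0.359), Mir5121 (-0.343) and Mir5124a (-0.342) lay between. All 20 mature bases of miR-3473b were paired in the predicted fold, against a median of 81.0% over all mature sequences. The share was 66.7% for miR-5121, 73.1% for miR-6240, 73.7% for miR-6538, 75.0% for miR-5124a and 81.0% for miR-2137.

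The stem of Mir3473b is a perfect inverted repeat. Its first 20 bases (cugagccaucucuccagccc) are the exact reverse complement of the mature sequence, a self-complementary run of at least 20 bases that 17 of the 1005 hairpins had. The same 20 bases also occur in the hairpins of miR-3473c and miR-3473f.

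**Figure D5:**
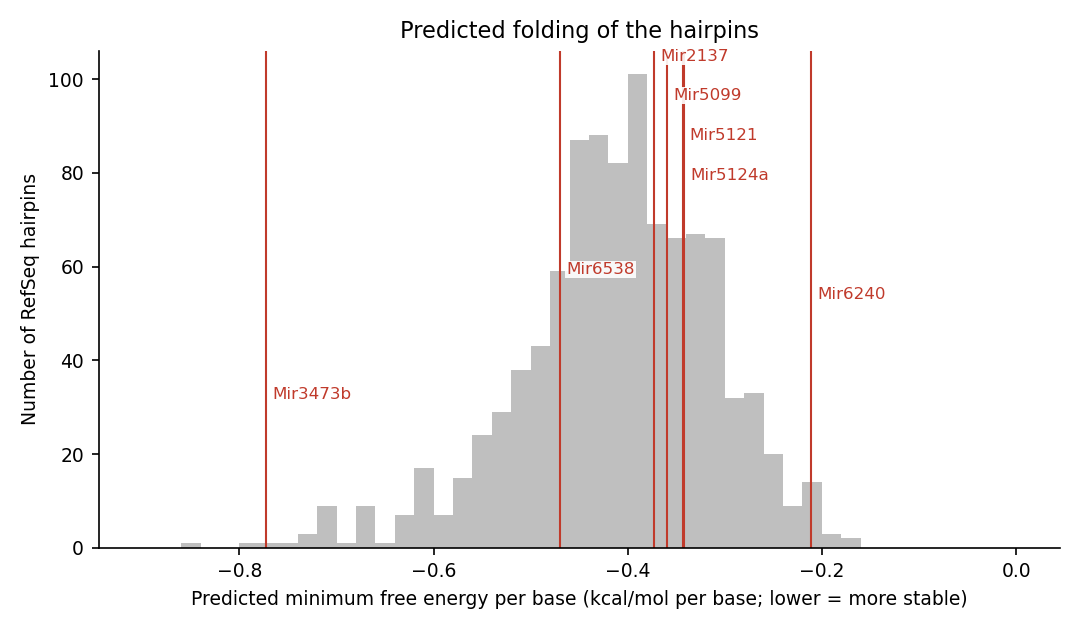
Number of RefSeq hairpins by predicted minimum free energy per base (kcal/mol per base), with lines at the 7 hairpins of the set that had a sequence. Mir3473b lies at the stable end, Mir6240 at the unstable end, and 4 of the others on the less stable side of the median.

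The mature sequence of miR-3473b (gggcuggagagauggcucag, read as DNA on both strands) was also frequent outside its own locus. It occurred whole in 32 of 32851 promoter windows of 300 bases (0.0974%), reaching from 250 bases before to 50 after a gene start, with its own locus left out. No other listed name with a sequence reached that number. The next were miR-3471 with 11 windows, miR-3470b with 10 and miR-3473a with 9, and 8 of the 1231 names occurred whole in any window. A stretch of 15 of its bases occurred in 77 windows (0.234%), again the highest of the 1231. Its lettered relatives miR-3473e, with 70 windows, and miR-3473a, with 66, came close by this measure. The same search found 15-base stretches of miR-6538 in 4 windows, of miR-2137 in 1 and of miR-6240, miR-5124a and miR-5121 in none. A match is a description of sequence and not a site. As background, the opening of the B2 family of rodent short interspersed repeats is known to read much like miR-3473b, and the hairpin of miR-6240 is known to resemble large-subunit ribosomal RNA. Neither repeat nor ribosomal sequences were used here, and whether reads of these names came from such RNA was not tested.

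The loci gave 1 direct overlap with another small RNA gene. Mir5121 (chr7:45126918-45126991, minus strand) lies within Rpl13a, which encodes a ribosomal protein, and 28 of its 74 bases fall in Snord33, a small nucleolar RNA gene at chr7:45126864-45126945. All 21 bases of mature miR-5121 (chr7:45126925-45126945) lie inside Snord33. The first (5′) base of miR-5121, which is on the minus strand, lies at the highest coordinate of that gene. The gene table gives no strand for Snord33, and reads of either RNA could not be told apart by position. Of the 1005 hairpins, 5 (0.498%) overlapped a small nucleolar, small nuclear, ribosomal or transfer RNA gene of that table.

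Protein-coding genes spanned 5 more of the hairpins. Mir2137 (chrX:72992079-72992144, plus strand) lies within the span of Zfp185, Mir3473b (chr10:41670739-41670793, plus strand) within Ccdc162, and Mir5124a (chr13:40865791-40865862, plus strand) within Gcnt2, an enzyme that branches poly-N-acetyllactosamine chains. Mir6538 (chr12:26414901-26415010, minus strand) lies within Rnf144a, a ubiquitin ligase gene, and Mir709 (chr8:84086099-84086186) within Rfx1, a transcription factor gene. Mir5099 (chr12:36816205-36816278, plus strand) and Mir6240 (chr5:114851948-114852064, plus strand) overlapped no gene of the table. The nearest to Mir6240 was 4930519G04Rik at 1582 bases, and the nearest to Mir5099 was the long non-coding RNA gene Gm40394 at 66693 bases. The table gives whole gene spans, so exons and introns were not separated.

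A list of 21 other poorly conserved or doubtful names served for comparison. Of these, 11 were listed and 10 were not. The list took 1.29% of the counts in replicate 1 and 1.31% in replicate 2, against 7.91% and 9.24% for the 8. The 8 were chosen because they stood high in these same counts, so their larger share follows from that choice. Most of its 48884 and 54005 counts carried the name miR-690, with 41167 and 45297, whose log2 ratio of 0.011 did not pass the exact test (adjusted p = 0.291). The exact 95% interval of that log2 ratio was -0.0078 to 0.031, while miR-5124a, next to miR-690 in rank, had a log2 ratio of -0.54. miR-5100 had 3566 and 3246 counts, miR-712-5p 1718 and 2974, and miR-5126 2024 and 1974. Of the 9 names of this list deep enough to test, 7 passed (background 70.6%).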

How the data were processed

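miRNA reads were counted in 2 streptavidin pulldown libraries of 1 group. The authors deposited 1 headerless table of raw counts per library (a miRNA name, then its whole-number count, 1 or more). cutadapt, Novoalign and the mm10 build are named in the submitters' processing notes, with no version or role. The miRNA reference and the handling of PCR copies and of reads matching several names are not given in the sources used here. Unlisted names were set to 0. Rows whose names begin with Cali, 0.00265% and 0.000218% of the counts, were left out.

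CPM, ranks, Wilson and Clopper-Pearson 95% intervals and exact binomial tests were computed with scipy 1.17.1, pandas 2.3.3 and numpy 2.4.6 under Python 3.11.15. edgeR 4.0.16 gave TMM factors and DESeq2 1.42.0 size factors (R 4.3.3) for alternatives. The binomial test was tested on simulated data that held counting error of reads alone. That check does not cover the wider spread seen between these libraries. Hairpins were folded with RNAfold 2.7.2 at its default settings, and figures drawn with matplotlib 3.10.9. Sequences and gene spans are RefSeq's, GRCm38.p6, the assembly that mm10 names. The 8 names and all lists were chosen with earlier results of these data known. The rule for naming took, besides the 8, names of the same number, rank neighbours, the 10 most abundant names without an arm ending and the 4 most abundant of the comparison list. Outside it, and chosen after their values were seen, are the seed mate, the names passing the divided test, miR-103-3p, miR-3471, the marker miR-214-3p and miR-31-5p, the most abundant name.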

Additional observations from a re-analysis of the deposited data

How the results depend on the processing

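The summed share of the 8 names was 5.97% without miR-5099 and 9.99% when miR-31-5p was taken out of the total, against 8.57%, and ranged from 7.91% to 9.24% when each library was left out in turn. The number of the 8 among the 100 most abundant names was 7 under every alternative run, from 7 to 7 with each library left out. All 8 passed the test between the libraries with DESeq2 size factors or TMM factors, at an adjusted p-value of 0.01, over names averaging at least 100 counts and with no count minimum. The share of all names passing under these alternatives was not computed, and in the main test it was 70.6%. With a 2-fold ratio also required 2 of the 8 passed (background 44.0%), and after division of the counts 6 passed (background 1.60%). All 8 log2 ratios kept their direction and their side of the threshold under both other scalings and in a total without the 8 names. The share of names without an arm ending was 4.72% in a total without the 8 names, an alternative added after the data were seen, and 12.2% to 13.6% with each library left out. Mean CPM moved by more than its SD for 4 of the 8 when miR-31-5p was taken out of the total and for 2 when the 8 were, which follows from the smaller totals. Leaving out a library leaves the value of the other. No paired analysis was possible because both libraries belong to 1 group and nothing could be paired.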
